A study of Mus musculus with 12 samples.

Results

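The cytosolic ribosomal protein genes were followed through 12 RNA-seq libraries of whole mouse kidney at E18.5. They were taken by gene symbol (Rps or Rpl with a number, together with Rpsa, Rplp0, Rplp1 and Rplp2, and without symbols ending in -ps), which gave 88 of 36186 entries, 37 of the small subunit and 51 of the large subunit. Some of these entries are pseudogenes by RefSeq and are named below. Each genotype was represented by 3 embryos: wild type (Wt_30, Wt_37 and Wt_55), AkCh (Hoxa9,10,11-/- HoxC9,10,11+/-, animals AkCh_20, AkCh_31 and AkCh_33), AhCk (Hoxa9,10,11+/- HoxC9,10,11-/-, animals AhCk_38, AhCk_110 and AhCk_115) and AkCk (Hoxa9,10,11-/- HoxC9,10,11-/-, animals AkCk_24, AkCk_27 and AkCk_29). The study asked how paired losses of Hox paralogs act on the kidney. The 9 libraries of wild type, AkCh and AkCk carry run1008 in their labels and the 3 AhCk libraries carry run1646, so that run and genotype cannot be told apart for AhCk.

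The Hox alleles are germline frameshift mutations, carried by every cell of embryos of mixed 129 and CD1 background. By the study's text the sequenced double mutants kept 1 or 2 wild-type alleles of Hoxa11, so that the AkCk libraries may mix Hoxa11 genotypes. The labels carry no such distinction, and the 3 libraries are treated here as 1 group. A frameshift need not lower a transcript, and the targeted genes were present in all 4 groups. Hoxa11 lay at 44.2 to 59.7 CPM (counts-per-million, scaled by TMM) in wild type and 37.1 to 52.9 CPM in AkCk, and Hoxc10 at 50.2 to 66.9 CPM in wild type and 29.1 to 37.8 CPM in AkCk. In AkCh_20, AkCh_31 and AkCh_33, Hoxc10 lay at 121, 45.3 and 41.6 CPM and Hoxc9 at 32.7, 11.7 and 12.6 CPM, with AkCh_20 apart. The labels were therefore not checked by these transcripts. Libraries held 28616878 to 47067926 counts, so that 3 counts, the floor used here, correspond to 0.0614 to 0.116 CPM. All 6 proximal tubule markers, all 6 cap mesenchyme markers and all 4 podocyte markers examined had counts, and the embryos were not all of the same sex. The sex of each embryo is not given here, and sex may be uneven between groups. AkCh_20 stood apart from the other AkCh libraries, and results that rest on it are given with and without it.

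The cytosolic ribosome joins a small subunit, which reads the mRNA, to a large subunit, which forms the peptide bond, and nearly every ribosomal protein is present in a single copy in each. Cells make these proteins in matched amounts, and their mRNAs are short, abundant and begin in most cases with a run of pyrimidines at the 5′ end, the terminal oligopyrimidine tract, through which mTORC1 and Larp1 set their translation. In the kidney, demand for ribosomes is high in dividing progenitors. Ribosomal protein genes also left many processed pseudogenes in the genome, and these near copies compete for their reads.

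RefSeq start sites were available for 63 of the 88 genes. A run of at least 8 pyrimidines (C or T on the gene's strand) within 25 bases of a start site was present for 33 of the 63 genes, or 52.4%, and for 6014 of 27025 genes of the whole table, or 22.3%. The windows below span 15 bases before and 15 from the listed start on GRCm38.p6, with the longest pyrimidine run of the window in capitals. They are shown for genes whose values are described further on and were picked after those values were seen: Rpl27, Rpl28 and Rpl27a are among the genes that stood highest in the library AkCh_20, Rpl9, Rpl5 and Rpl10a among those that stood lowest there, and Rpl37 and Rpl10 differed between AkCk and AhCk.
Rpl27 (chr11:101442230-101442259, plus strand): acgctctgTTCCTgtctgctgctcgtgctg
Rpl28 (chr7:4792950-4792979, plus strand): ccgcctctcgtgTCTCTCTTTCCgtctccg
Rpl27a (chr7:109519180-109519209, plus strand): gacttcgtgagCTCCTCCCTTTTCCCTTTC
Rpl9 (chr5:65391417-65391446, minus strand): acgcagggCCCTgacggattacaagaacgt
Rpl5 (chr5:107900513-107900542, plus strand): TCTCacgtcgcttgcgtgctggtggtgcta
Rpl10a (chr17:28328456-28328485, plus strand): gtggcgCCCCCCCagcggccgcaaactgca
Rpl37 (chr15:5116598-5116627, plus strand): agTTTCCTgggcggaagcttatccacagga
Rpl10 (chrX:74270801-74270830, plus strand): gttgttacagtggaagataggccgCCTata
Within 25 bases of the start, the longest run was 5 in Rpl27, 11 in Rpl28, 20 in Rpl27a, 4 in Rpl9, 9 in Rpl5 and 8 in Rpl10a. Over 60 genes, Spearman's rho of run length with the log2 ratio of AkCh_20 to the other AkCh libraries was 0.24 (0.48 over 24 genes of the small and 0.16 over 36 of the large subunit), a description across genes that share these libraries. The listed start is 1 position where transcription may use several.

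Of the 88 genes 81, 33 of the small and 48 of the large subunit, had enough counts for every fit. Rps12l1, Rps12l2, Rps3a2 and Rps3a3, which RefSeq lists as pseudogenes, had 0 counts in every library. Rpl10l and Rpl39l, retrogene copies known from testis, had 0 to 2 counts, and Rpl3l, the striated muscle paralog of Rpl3, had 0 to 12. In wild type, as the mean of its 3 libraries, the median level of the 81 genes per length was 986 CPM per kilobase of mRNA (range 25.03 to 1927), with 1117 for the small and 880 for the large subunit.

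Per kilobase and in wild type, as for all levels per kilobase here, Rpl41, which encodes the shortest ribosomal protein, was highest at 1927 ± 116 CPM (SD, n = 3, as for all values with ±). Rps24 followed at 1834 ± 233, Rplp1 at 1716 ± 210, Rpl23a at 1672 ± 233 and Rpl32 at 1634 ± 230 CPM per kilobase. Neighbours among these 5 lay within each other's SD. The lowest level was that of Rps4y2, at 25.03 ± 5.44 CPM per kilobase. This entry corresponds to Rps4l of RefSeq, a transcribed pseudogene at chr6:148354656-148355596. Above it were Rpl7l1 at 56.4 ± 2.67, Rpl29 at 89.2 ± 7.88, Rps15a at 110 ± 6.47 and Rpl22 at 167 ± 17.6 CPM per kilobase. Rpl29 was among the lowest in wild type, but was several times higher in AhCk, as described further on. Rps15a is low on this scale partly by construction, because its annotated transcript of 5.179 kilobases is the longest of the 81.

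Of the acidic stalk that recruits elongation factors, Rplp0 stood at 1603 ± 149 and Rplp2 at 569 ± 69.0 CPM per kilobase, and Rpsa, which is also known as a laminin receptor, at 1006 ± 101. Rpl5 and Rpl11, which with 5S rRNA bind Mdm2, stood at 671 ± 43.3 and 947 ± 120 CPM per kilobase. Among genes on the X chromosome, Rps4x had 1628 ± 108, Rpl10 1381 ± 146, Rpl39 868 ± 111 and Rpl36a 781 ± 86.9 CPM per kilobase. Rpl22l1 at 239 ± 41.8 lay above its parent Rpl22 on this scale, an order that rests on the annotated lengths of 0.552 and 2.051 kilobases, since in CPM, without division by length, Rpl22 was higher in each wild type library (302, 367 and 361 CPM against 106, 151 and 139 CPM). By contrast, Rps27l at 176 ± 7.04 lay below Rps27 at 1145 ± 168 and Rpl7l1 far below Rpl7 at 1322 ± 136 CPM per kilobase. By the study's methods, these levels leave out reads that aligned to more than 1 position. How far this changes the level of a gene was not tested. Across the 84 genes with a GENCODE transcript, the share of 75-base windows that also occur in another gene's transcript had a median of 41.6% and reached 98.5% in Rps27.

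The ribosomal protein genes took a large part of each library. Their summed level was 57230, 70057 and 69646 CPM in Wt_30, Wt_37 and Wt_55, 51779, 54368 and 59289 CPM in AhCk_38, AhCk_110 and AhCk_115, and 63095, 54536 and 64355 CPM in AkCk_24, AkCk_27 and AkCk_29. In AkCh it was 56490 CPM in animal 31 and 55726 CPM in animal 33, but 114186 CPM in animal 20. AkCh_20 thus stood far above the other 11 libraries, and the remaining mutants lay in or below the range of wild type. As shares of all counts these sums were 5.33 to 7.17% in 11 libraries and 10.3% in AkCh_20. In bulk tissue, fewer cells of a type and less RNA per cell cannot be told apart.

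**Figure D1:**
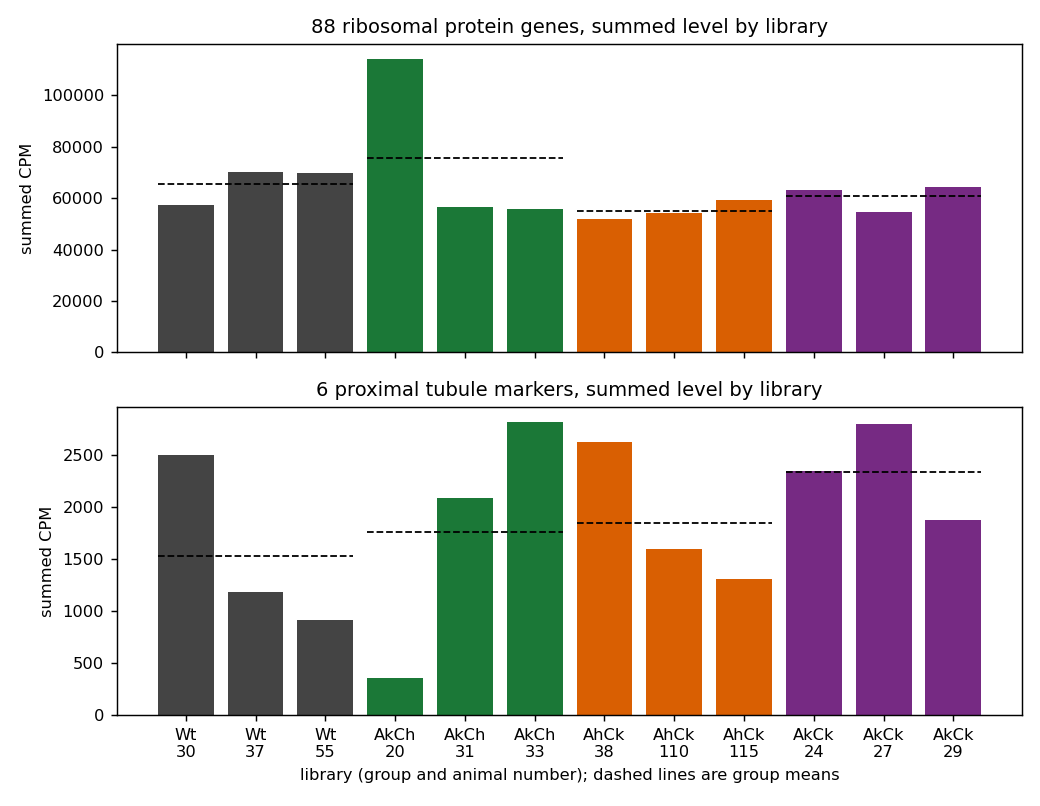
Summed level in CPM of the 88 ribosomal protein genes (upper bars) and of 6 proximal tubule markers (lower bars) in each of the 12 libraries, with dashed lines at the group means; both axes start at 0. AkCh_20 has the highest ribosomal sum, 114186 CPM, and the lowest proximal tubule sum, 363 CPM.

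Markers of the proximal tubule moved against the ribosomal sums. The 6 proximal tubule markers (Slc34a1, Lrp2, Cubn, Slc22a6, Slc5a2 and Miox) summed to 2506, 1189 and 916 CPM in wild type and to 363, 2090 and 2827 CPM in AkCh_20, AkCh_31 and AkCh_33. They summed to 2629, 1603 and 1308 CPM in AhCk_38, AhCk_110 and AhCk_115, and to 2350, 2800 and 1878 CPM in AkCk_24, AkCk_27 and AkCk_29. In each of the 3 mutant groups the order of the proximal tubule sums was the inverse of the order of the ribosomal sums, and in wild type Wt_30 had the highest proximal tubule and the lowest ribosomal sum. None of the 6 markers was at 0 in any library. The part of this in the ribosomal levels was not tested. The 6 cap mesenchyme markers summed to 475 CPM in AkCh_20, against 201 and 224 CPM in the other AkCh libraries, 211 to 305 CPM in wild type, 182 to 237 CPM in AhCk and 58.3 to 169 CPM in AkCk. Other sets also set AkCh_20 apart from AkCh_31 and AkCh_33. The 4 podocyte markers summed to 471 CPM against 1087 and 1026 CPM, and the 3 markers of the loop of Henle to 485 CPM against 963 and 848 CPM. Endothelial markers summed to 424 CPM against 584 and 580 CPM. Genes of cell division summed to 2340 CPM in AkCh_20 against 1574 and 1488 CPM, and hosts of small nucleolar RNAs to 321 CPM against 159 and 155 CPM. Ureteric tip markers summed to 283 CPM in AkCh_20 against 196 and 188 CPM, and erythroid markers to 2007 CPM against 556 and 766 CPM. Genes that serve translation were higher there as well, with 29130 CPM against 22305 and 22016 CPM for translation factors, 5999 CPM against 3837 and 3748 CPM for ribosome assembly and 4881 CPM against 3270.2 and 3475 CPM for mitochondrial ribosomal proteins. The part of these sets in the ribosomal levels was not tested.

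The members moved as a block from library to library. Relative to the mean of wild type, the median log2 ratio of the 81 genes was -0.22, 0.09 and 0.09 in Wt_30, Wt_37 and Wt_55. It was 0.90, -0.24 and -0.26 in AkCh_20, AkCh_31 and AkCh_33, -0.37, -0.31 and -0.18 in AhCk_38, AhCk_110 and AhCk_115, and -0.07, -0.28 and -0.06 in AkCk_24, AkCk_27 and AkCk_29. Thus Wt_30 lay nearer to the mutants other than AkCh_20 than to the remaining wild type libraries, with 0 of 81 genes above the mean of wild type, against 79 in Wt_37 and 76 in Wt_55. In AkCh_20 all 81 genes were above it, in AkCh_31 and AkCh_33 none was, in the AhCk libraries 2 to 7 were, and in the AkCk libraries 1 to 22. Other short mRNAs leaned to the same side in each library. For 681 other genes with mRNAs of up to 1000 bases, the median log2 ratio was -0.11, 0.049 and 0.046 in Wt_30, Wt_37 and Wt_55. It was 0.64, -0.17 and -0.098 in AkCh, -0.21, -0.21 and -0.092 in AhCk, and -0.0097, -0.042 and -0.070 in AkCk, in the order above. The part of mRNA length in these shifts was not tested.

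**Figure D2:**
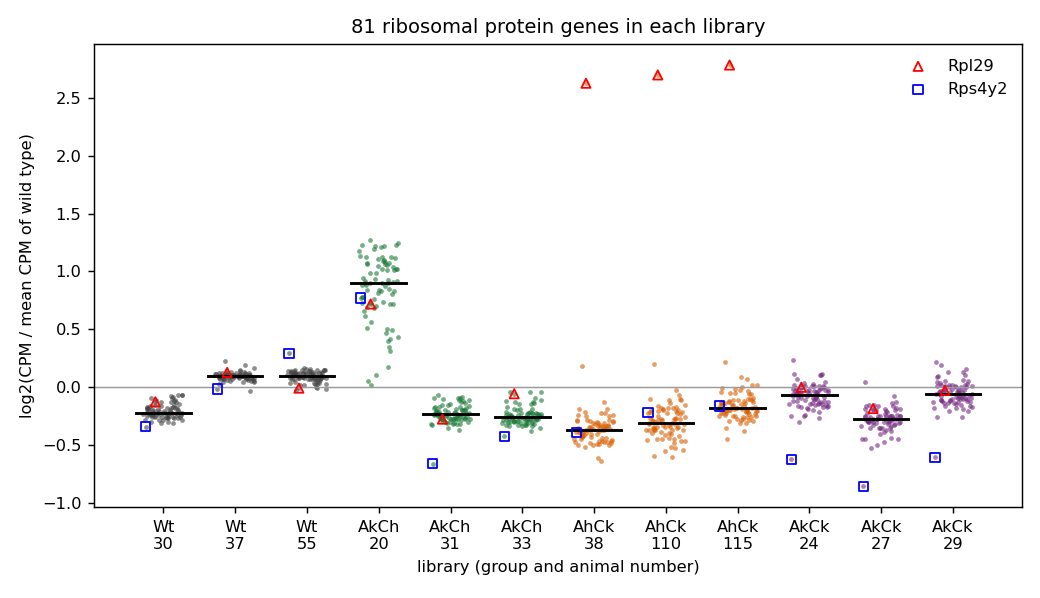
Log2 ratio of CPM to the mean of wild type for the 81 ribosomal protein genes in each library; each point is a gene, and Rpl29 and Rps4y2 are marked. The points of a library move up or down together, with AkCh_20 highest (median 0.90), and Rpl29 stands above all others in the 3 AhCk libraries.

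After the median of the 81 genes was taken from each library, little spread remained. Over the 11 libraries without AkCh_20, the SD of a gene's log2 level relative to that median was 0.065 at the median gene and below 0.1 for 71 of 81 genes, against a median of 0.169 before centring. Only Rpl29, at 1.38, and Rps4y2, at 0.27, exceeded 0.2. With AkCh_20 included the median was 0.086 and 10 genes exceeded 0.2.

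The excess in AkCh_20 differed among the genes. Against the mean of AkCh_31 and AkCh_33, all 81 genes were higher, with a median log2 ratio of 1.14 and a range from 0.13 to 1.56. Rpl27 had 1059 CPM in AkCh_20 against 362 and 358 CPM in AkCh_31 and AkCh_33, a log2 ratio of 1.56. Rpl28 had 1648 CPM against 573 and 584 CPM, a log2 ratio of 1.51. By contrast, Rpl3, a core protein of the large subunit, had 1643 CPM against 1510 and 1483 CPM, a log2 ratio of 0.13, and Rpl9 had 1046 CPM against 872 and 879 CPM, a log2 ratio of 0.26. Rpl5 at 0.30, Rpl10a at 0.33, Rps4x at 0.43 and Rplp0 at 0.48 were the next lowest. This is a description of 1 library, and it has no replicate.

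Short mRNAs in general were higher in AkCh_20. Among genes outside the ribosomal proteins, the median log2 ratio of AkCh_20 to the other AkCh libraries was 1.01 for 59 genes with mRNAs of up to 500 bases, 0.81 for 622 further genes of up to 1000 bases, 0.37 for 2819 of up to 2000 bases, -0.01 for 5650 of up to 4000 bases and -0.34 for 4252 longer genes. The ribosomal protein genes had medians of 1.31 for 13 genes, 1.12 for 44, 1.14 for 19 and 0.83 for 4 in the first 4 of these classes, and 1.21 for the single gene over 4000 bases, Rps15a. Their median lay above that of the other genes in every length class. The median mRNA of the 81 genes was 799 bases long (345 to 5179), against 2923 bases over the 15003 tested genes with a length. Across the 81 genes, Spearman's rho between the log2 ratio and mRNA length was -0.26, and that with the wild-type level per kilobase was -0.32. Both are descriptions across genes of shared libraries, which are not independent replicates.

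**Figure D3:**
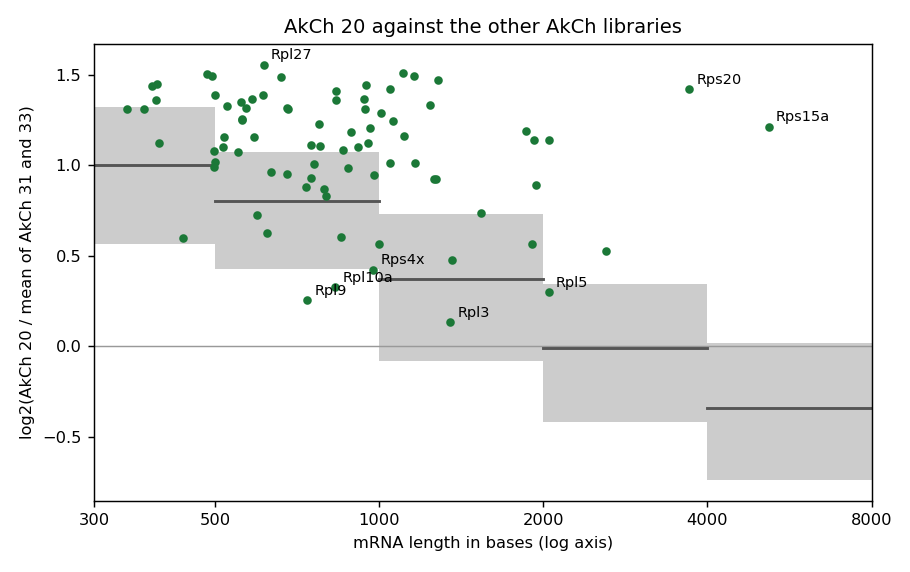
Log2 ratio of AkCh_20 to the mean of AkCh_31 and AkCh_33 against mRNA length in bases (log axis) for the 81 ribosomal protein genes (points), with the quartiles (grey) and median (line) of other genes by length class. The other genes fall from a median of 1.01 at up to 500 bases to -0.34 over 4000 bases, and most ribosomal protein genes lie above the median of their class.

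Wild type, AkCh and AkCk were compared within run1008, with edgeR's quasi-likelihood test on 3 against 3 libraries and p-values adjusted by Benjamini-Hochberg over every gene in the fit (SE is the standard error of a log2 fold change). These comparisons share libraries and are not independent of each other. Between AkCk and wild type, 1 of the 81 ribosomal protein genes passed an adjusted p of 0.05, whereas 13.7% of the 15839 genes tested did and 7.4% were lower. That gene was Rps4y2, at 15.3, 13.0 and 15.5 CPM in AkCk and 18.6, 23.3 and 28.9 CPM in wild type. The groups did not overlap, and the log2 fold change was -0.69 (SE 0.17, adjusted p = 0.0341). The call did not hold in any fit of the comparison without Wt_37, without Wt_55 or without any 1 of the AkCk libraries (adjusted p from 0.0588 to 0.111). In the AkCh libraries Rps4y2 lay at 40.2, 14.9 and 17.6 CPM, with animal 20 again highest.

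The other 80 genes did not pass in AkCk. Their fold changes leaned to the same side: 76 of 81 were below 0, with a median log2 fold change of -0.13 over the 81 genes and -0.01 over all genes tested. This lean depended on the processing: the median over the 81 genes was 0.13 with Xist as a covariate in a fit of all 12 libraries, as for every value with Xist here, and -0.012 with the correction for GC content and length (all genes: 0.071). At an unadjusted p of 0.05, 4 genes were lower (16.8% of all genes) and 0 higher (15.6%), and the groups did not overlap for 2 genes, both lower in AkCk (20.8% of all genes). The small subunit had a median of -0.12 and the large subunit -0.14. Of these 2, the gene other than Rps4y2 was Rpl41, at 710 ± 37.8 CPM in AkCk and 842 ± 50.5 CPM in wild type, for a log2 fold change of -0.25 (SE 0.08, adjusted p = 0.0893). The count changed with 1 wild-type library. Without Wt_30, 10 genes were lower in AkCk (8.89% of all genes), namely Rpl13a, Rpl17, Rpl35, Rpl35a, Rpl36, Rpl37a, Rps15, Rps18, Rps27 and Rps4y2, and the median over the 81 genes was -0.22. The median lay nearer to 0 without Wt_37 (-0.071), without Wt_55 (-0.081) or without AkCk_27 (-0.061).

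Between AkCh and wild type, 0 of 81 ribosomal protein genes passed the test, as did 0% of all 15789 genes. At an unadjusted p of 0.05 the count was also 0 among the 81, against 2.28% (360) of all genes, and DESeq2 called 22 genes and 0 of the 81. The log2 fold changes of 77 genes lay above 0, with a median of 0.24 (all genes: 0.03), which was 0.12 with the correction for GC content and length (all genes: 0.10) and 0.46 with Xist as a covariate. That direction rests on 1 library: without AkCh_20 the median was -0.25, still with 0 calls among the 81, where 8 of 15967 genes (0.0501%) passed.

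Between AkCk and AkCh, again 0 of 81 genes and 0% of 15764 genes passed, with 0 of the 81 at an unadjusted p of 0.05 (11.3%, or 1787, of all genes) and 0 of the 81 by DESeq2 (554 of all genes). The median log2 fold change was -0.39 (all genes: -0.01), and -0.13 with the correction for GC content and length. Without AkCh_20 it was 0.13, 687 genes passed, and 0 of the 81 were among them.

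**Figure D4:**
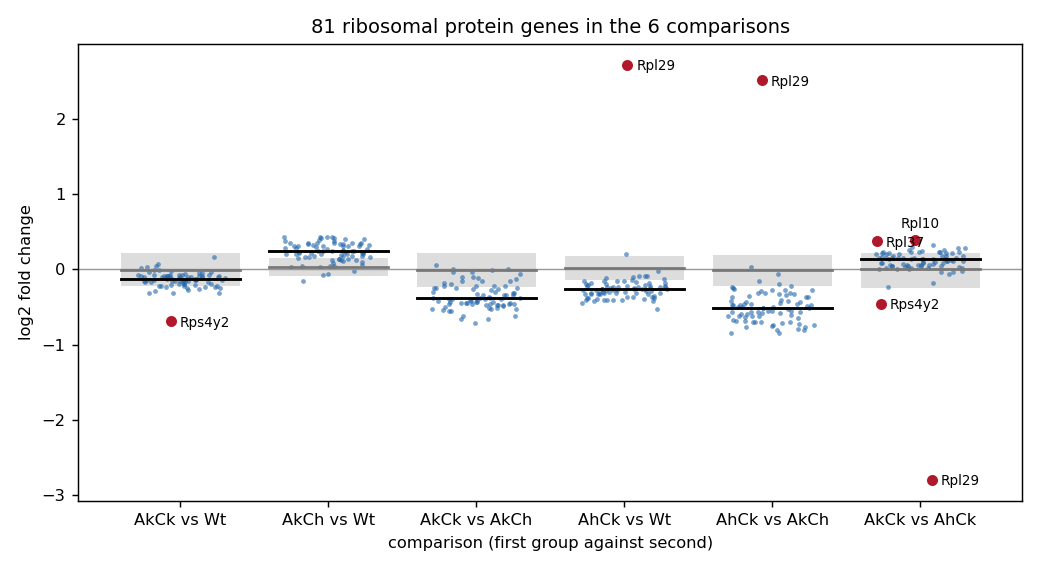
Log2 fold changes of the 81 ribosomal protein genes in each of the 6 comparisons; each point is a gene, grey marks the quartiles of all genes tested and red the genes past an adjusted p of 0.05. The AhCk comparisons with wild type and AkCh have medians of -0.27 and -0.51 with Rpl29 far above, at 2.71 and 2.51.

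The AhCk comparisons are also comparisons of run1646 with run1008. Against wild type, 1 of 81 ribosomal protein genes was called, Rpl29, which was higher, and 2.36% of 15902 genes were called (0.836% higher). Of the 81 log2 fold changes, 79 were below 0, with a median of -0.27 (all genes: 0.01). That median was -0.12 with the correction for GC content and length and -0.10 with Xist as a covariate. At an unadjusted p of 0.05, 46 were lower (11.2% of all genes), and 26 were lower without overlap of the groups (15.3% of all genes) and 2 higher (11.4%), but of these only Rpl29 passed the adjusted threshold. Rpl37 had the lowest of these log2 fold changes. It was at 230, 237 and 275 CPM in AhCk and 308, 383 and 386 CPM in wild type. The groups did not overlap, and the log2 fold change was -0.53 (SE 0.11, adjusted p = 0.0656). Rpl38, known for its part in the translation of Hox mRNAs, was at 207, 185 and 219 CPM in AhCk and 242, 293 and 303 CPM in wild type, also without overlap, with a log2 fold change of -0.45 (SE 0.11, adjusted p = 0.0813). How many genes pass depends on the test and on 1 library. DESeq2 called 22 genes lower (4.78% of all genes) besides Rpl29, and without Wt_30 edgeR called 24 lower (2.06% of all genes).

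Of the genes not lower in AhCk, Rps2 was at 1523, 1545 and 1563 CPM in AhCk and 1263, 1387 and 1390 CPM in wild type. Its groups did not overlap, and its log2 fold change was 0.21 (SE 0.07, adjusted p = 0.169). Over all 12 libraries, 1 of 81 genes lay higher in every AhCk library than in every library of run1008, namely Rpl29 (3.82% of the 15474 genes in every fit), and 7 lay lower, namely Rpl3, Rpl9, Rpl26, Rpl37, Rpl38, Rps4x and Rps15a (5.64%). The 5 erythroid markers with counts summed to 522, 1792 and 5839 CPM in AhCk_38, AhCk_110 and AhCk_115 and to 538 to 2007 CPM elsewhere, so that they overlapped wild type, and 0 of the 5 passed against it. The 6 stroma markers summed to 3614, 4508 and 4921 CPM in AhCk and 2702 to 2874 CPM in wild type, without overlap, and 3 of the 6 (Col3a1, Postn and Lum) were higher in AhCk. The 4 podocyte markers summed to 1013 to 1187 CPM in AhCk and 946 to 994 CPM in wild type, with 0 of 4 past the test, and of the 4 ureteric tip markers Ret was lower. The part of these markers in the ribosomal levels was not tested.

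Against AkCh, 1 of 81 genes passed (0.177% of 15856 genes; 0.0505% higher), again Rpl29, with a median of -0.51 over the 81 genes (all genes: -0.01). There were 15 genes lower without overlap (12% of all genes), a count that does not rest on AkCh_20, which was the highest AkCh library for all 81 genes. The median was -0.23 with the correction for GC content and length (all genes: -0.096) and -0.04 without AkCh_20.

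Between AkCk and AhCk, 4 of 81 genes passed, 2 higher and 2 lower in AkCk, while 19.1% of 15889 genes did (7.63% higher and 11.4% lower). Rpl10, an X-linked protein of the large subunit that completes its peptidyl transferase centre, was at 1294, 1135 and 1285 CPM in AkCk and 907, 889 and 1008.04 CPM in AhCk. The groups did not overlap, and the log2 fold change was 0.38 (SE 0.09, adjusted p = 0.0250). Wild type, at 969, 1177 and 1164 CPM, overlapped both. Rpl37 was at 349, 287 and 340 CPM in AkCk, above the AhCk values given before, with a log2 fold change of 0.37 (SE 0.11, adjusted p = 0.0466). Rps4y2 was lower, with 18.0, 20.2 and 21.1 CPM in AhCk and a log2 fold change of -0.46 (SE 0.11, adjusted p = 0.0311). Rpl10, Rpl37 and Rps4y2 each lost their call in the fits without AkCk_24, without AkCk_29 or without AhCk_110. In addition, Rpl37 lost its call without AhCk_38, and Rps4y2 lost its call without AkCk_27 and without AhCk_115. When all 12 libraries were fitted together, with or without Xist as a covariate, only Rpl29 of the 4 passed. Rps4x, X-linked like Rpl10, was near the threshold at 0.32 (SE 0.09, adjusted p = 0.0510). Of the 81 log2 fold changes, 72 were above 0, with a median of 0.13 (all genes: 0.00). With the correction for GC content and length that median was 0.069, close to the 0.064 of all genes, and with Xist as a covariate it was 0.22. When each library was left out it ran from 0.082, without AkCk_29, to 0.19, without AkCk_27 or AhCk_115. There were 12 genes higher and 3 lower without overlap (19.9% and 20.4% of all genes).

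Rpl29, a basic protein of the large subunit at chr9:106428889-106431568, was the gene that departed most from the others. It had 59.8, 71.3 and 64.9 CPM in wild type, 107, 53.9 and 62.8 CPM in AkCh_20, AkCh_31 and AkCh_33, and 65.2, 57.4 and 64.0 CPM in AkCk. In AhCk it had 404, 424 and 450 CPM. The 3 AhCk libraries lay above all others without overlap, and the 9 libraries of run1008 overlapped each other across genotypes. The log2 fold change of AhCk to wild type was 2.71 (SE 0.09, adjusted p = 1.82e-05), a fold of 6.56. It was 2.51 for AhCk to AkCh (SE 0.28, adjusted p = 0.0438) and -2.80 for AkCk to AhCk (SE 0.09, adjusted p = 6.64e-06). Leaving out AkCh_31, AkCh_33 or any 1 AhCk library ended the call of AhCk against AkCh (log2 fold changes from 2.32 to 2.54, adjusted p from 0.145 to 0.226). Without AkCh_20 the log2 fold change was 2.88 and the adjusted p 0.000187.

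The processed pseudogene Gm13841 moved the other way. Its GENCODE model is 483 bases long and matches the whole coding sequence of Rpl29 at 99.4% identity. It differs by 3 substitutions, C72A, C300T and T423C, with the base of Rpl29 first and positions counted from 1 at the A of the start codon. The windows below are the bases 52 to 92, 280 to 320 and 403 to 443 of the coding sequence, printed because these bases, shown as the capitals, are where the 2 copies differ within the coding sequence. The reads were paired, so that a mate can also place a read that covers none of them.
Rpl29 with C72 at chr9:106430342, exon 3 of 4: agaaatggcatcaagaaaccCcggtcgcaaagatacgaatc
Gm13841 with A72 at chr5:115802088, 1 exon: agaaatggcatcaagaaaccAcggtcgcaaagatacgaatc
Rpl29 with C300 at chr9:106431266, exon 4: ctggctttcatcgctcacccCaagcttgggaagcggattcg
Gm13841 with T300 at chr5:115801860: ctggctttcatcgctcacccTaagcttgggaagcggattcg
Rpl29 with T423 at chr9:106431389, exon 4: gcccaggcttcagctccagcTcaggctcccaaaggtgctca
Gm13841 with C423 at chr5:115801737: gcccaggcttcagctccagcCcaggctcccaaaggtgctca
Of the 409 windows of 75 bases, the length of a read, in Gm13841, 201 also occur in Rpl29.

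Gm13841 had 1509 to 3805 counts in each of the 9 libraries of run1008, next to 2235 to 3093 counts of Rpl29, so that it held 38.8 to 57.8% of both together. In run1646 it had 0, 1 and 2 counts, next to 13747, 20728 and 21705 counts of Rpl29. Reads called Gm13841 were thus present in all 3 genotypes of the first run and next to absent in AhCk. The sum of both was 100 to 254 CPM in run1008, with the highest value in AkCh_20, and 404 to 450 CPM in run1646. With the reads of Gm13841 added to Rpl29, an alternative chosen after the data were seen, the log2 fold change of AhCk to wild type was 1.86 (edgeR adjusted p = 0.000298), a fold of 3.62, and that to AkCh was 1.48 and no longer passed (edgeR adjusted p = 0.373). With these reads added, the difference between the runs was smaller and still present. The sources used here do not give the alignment settings of each run, so whether both runs were aligned alike is not known. The part of this in the fold changes of Rpl29 was not tested. Of the 659 windows of 75 bases in the Rpl29 mRNA, 57.4% occur in the transcripts of 45 other genes, Gm13841 among them, and no other reads than those of Gm13841 and Gm8580 were added to Rpl29 here.

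**Figure D5:**
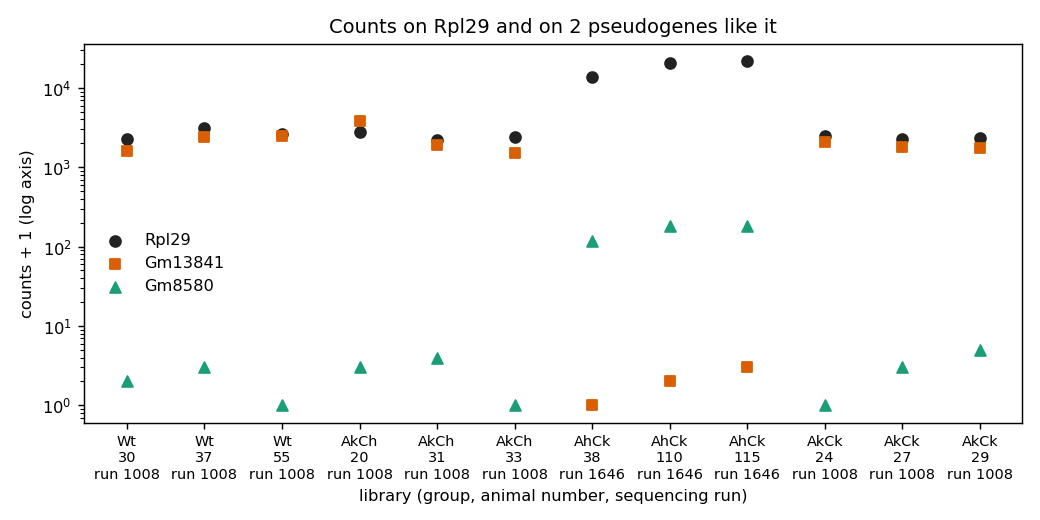
Counts plus 1 on a log axis for Rpl29 and the pseudogenes Gm13841 and Gm8580 in the 12 libraries, with the run of each library. In the 3 AhCk libraries of run1646 Rpl29 rises to between 13747 and 21705 counts, Gm13841 falls to 0 to 2 and Gm8580 rises to between 117 and 181.

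Among the 569 entries that share at least 1 window of 75 bases with a ribosomal protein gene, 2 were above 30 counts in every library of 1 run and at most 5 in every library of the other. These were Gm13841 and Rpl3-ps2, a pseudogene of Rpl3 on the X chromosome, which had 124 to 222 counts in run1008 and 0 in all libraries of run1646. None of the 88 ribosomal protein genes switched in this way. Gm13841 and Rpl3-ps2 were named for this pattern, which is a description without a test.

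Genes that serve the ribosome were taken from lists drawn up by function, but with earlier results of these data known, so that the list counts are descriptions. In AkCk against wild type these counts stand beside the 13.7% of all genes that passed. Of 16 translation factors, 1 was higher in AkCk, Eef2, the translocase of elongation, at 3965 ± 154 CPM against 3113 ± 87.4 CPM in wild type (log2 fold change 0.35, edgeR adjusted p = 0.0333), and the median was 0.00. Among 75 mitochondrial ribosomal proteins, which build the separate ribosome of that organelle, Mrps10 was higher (0.41) and Mrpl22 lower (-0.30), with a median of -0.04. The calls of Eef2 and Mrps10 were lost without Wt_37, Wt_55, AkCk_24 or AkCk_29, and that of Mrpl22 without any 1 library.

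A part of the factors that assemble the ribosome were lower in AkCk kidneys than in wild type. Of 33 genes of rRNA synthesis and ribosome assembly, 10 passed the test and all 10 were lower (7.4% of all genes), with a median log2 fold change of -0.26 over the 33 and -0.01 over all genes tested. Gnl3 (nucleostemin, a nucleolar GTPase of stem and progenitor cells) was at 30.8 ± 3.50 CPM in AkCk and 51.9 ± 0.745 CPM in wild type, for a log2 fold change of -0.75 (edgeR adjusted p = 0.00491). Nop56, a core protein of the box C/D particles that methylate rRNA, was at 74.8 ± 6.18 and 115.1 ± 12.6 CPM (log2 fold change -0.62, edgeR adjusted p = 0.0102). Tcof1, which supports RNA polymerase I, changed by -0.58 and Dkc1, the pseudouridine synthase, by -0.54. Nop58, Nolc1, Nob1, Ltv1, Rrp9 and Nop2 changed by -0.26 to -0.44. The count was 12 without Wt_30 (with 1 further gene higher), 1 without Wt_37, 2 without Wt_55, 2 without AkCk_24, 4 without AkCk_27 and 6 without AkCk_29, and it was 2 with all 12 libraries modelled together. The share of all genes called, 13.7% at first, was 21.1%, 3.35%, 3.95%, 4.95%, 6.88%, 10.2% and 7.32% in the same fits. The median stayed between -0.21 and -0.30 in the fits that left out 1 library.

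Hosts of small nucleolar RNAs went the same way. These are noncoding genes known for RNAs that begin with the same pyrimidine tract, which was not examined for them here. All 8 had log2 fold changes below 0 in AkCk against wild type, with a median of -0.46, and 3 passed the test (7.4% of all genes passed as lower). Snhg1 was at 16.1 ± 1.23 CPM in AkCk and 37.2 ± 4.00 CPM in wild type, for a log2 fold change of -1.21 (edgeR adjusted p = 0.00173). Snhg5 was at 5.34 ± 0.252 and 13.7 ± 2.09 CPM (-1.36, edgeR adjusted p = 0.00300), and Gas5 at 85.2 ± 3.45 and 119 ± 16.5 CPM (-0.48, edgeR adjusted p = 0.0270). Snhg1 and Snhg5 passed whichever library was left out, and of these fits Gas5 passed only in that without Wt_30. Snhg1 and Snhg5 were also lower in AkCk than in AhCk, by -1.01 and -1.43. Of 15 regulators of ribosome synthesis, Mycn and Myc, which drive transcription of ribosome genes, were lower in AkCk than in wild type (-0.98 and -0.54), and both calls were lost without Wt_37, without Wt_55, without AkCk_24 or without AkCk_27, and that of Myc also without AkCk_29. Of 12 targets of p53, 0 passed, with 6 above and 6 below 0.

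Against AhCk, which is also a comparison of runs, AkCk was lower for 6 of the 33 assembly factors, 3 of the 8 hosts and 3 of the 15 regulators (11.4% of all genes), and higher for none of them. The regulators were Larp1, the binding protein of pyrimidine-tract mRNAs (-0.55, SE 0.07, edgeR adjusted p = 0.00335), Tsc1, an inhibitor of mTORC1 (-0.54), and Mycn (-0.89). Gnl3, Snhg1, Snhg5, Larp1 and Tsc1 passed whichever library was left out, while the other 7 of these calls were each lost without at least 1 library. The counts were lowest without AhCk_110, at 1 assembly factor, 2 hosts and 2 regulators, where 5.52% of all genes were called against 19.1% with every library. Of the 16 translation factors 2 were higher in AkCk, the initiation factor subunits Eif3e (0.34) and Eif3f (0.29). Of the 75 mitochondrial ribosomal proteins 7 were higher (7.63% of all genes) and 1 was lower. Without AkCk_24 or without AhCk_110, 0 of the translation factors and 0 of the mitochondrial ribosomal proteins passed. Of the 12 targets of p53, Ccng1 (0.63) and Trp53inp1 (0.46) were higher and Bax (-0.28) was lower. All 3 lost their call without AkCk_24 or without AhCk_110, and Ccng1 and Bax also without AkCk_27, AkCk_29 or AhCk_115.

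Other markers moved with these lists. In AkCk, 5 of 5 tested RNAs that are retained in the nucleus were also lower, at 40.7 to 60.4 CPM in sum against 133 to 172 CPM in wild type. The 13 genes of cell division summed to 927 to 1396 CPM in AkCk and 1563 to 1780 CPM in wild type, but only 1 of the 13, Mki67, passed as lower (7.4% of all genes did). The 6 stroma markers summed to 8015 to 9912 CPM against 2702 to 2874 CPM, and 6 of 6 were higher (6.31% of all genes). Likewise 3 of 4 macrophage markers were higher, with sums of 80.96 to 110 CPM in AkCk and 47.6 to 53.7 CPM in wild type, and 3 of 4 podocyte markers, with 1207 to 1606 CPM and 946 to 994 CPM. Of 6 liver markers, Alb and Ttr were higher, with sums of 11.4 to 28.7 CPM in AkCk and 4.27 to 9.01 CPM in wild type. Myh3 of 6 skeletal muscle markers and Cldn16 of 3 loop of Henle markers were higher, but the sums of these sets overlapped wild type. Of the progenitor markers, 4 of 6 for cap mesenchyme (Crym, Meox1, Gdnf and Cited1) and 4 of 4 for the ureteric tip (Ret, Wnt11, Etv4 and Etv5) were lower, with median log2 fold changes of -1.35 and -1.04. The ureteric tip markers summed to 92.6 to 149 CPM in AkCk and 201 to 244 CPM in wild type, and the cap mesenchyme sums are given above. The part of all these markers in the lower levels of assembly factors and small nucleolar RNA hosts was not tested. In AkCh against wild type, 0 of the genes in the lists of ribosome function passed, with AkCh_20 (0% of all genes) or without it (0.0501%). In AhCk against wild type none of the assembly factors, hosts, translation factors or mitochondrial ribosomal proteins passed. Of the regulators, Eif4e, the cap-binding initiation factor, was lower in AhCk, at 110 ± 4.13 CPM against 151 ± 8.63 CPM in wild type (-0.45, SE 0.07, edgeR adjusted p = 0.0282, where 2.36% of all genes were called). This call was lost without Wt_37, without Wt_55 or without any 1 of the AhCk libraries.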

How the data were processed

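RNA of whole E18.5 kidneys was sequenced by the authors as paired TruSeq reads of 75 bases and aligned to mm10 in Strand NGS; reads with more than 1 position were removed. The authors deposited estimated counts per gene, which were rounded, and normalized log2 values centred on the median of the 12 libraries, which served only an alternative. The estimated counts, as deposited, were tested with edgeR 4.0.16 in R 4.3.3 (TMM, filterByExpr with minimum count 10 and minimum total 15, quasi-likelihood test) on the 6 libraries of a comparison, p-values being adjusted by Benjamini-Hochberg over every gene in the fit at a threshold of 0.05; standard errors were derived from the F statistic. The test suits counts with replicates, in place of the Audic-Claverie test of the study. Levels are CPM with TMM factors over the 12 libraries. Counting floors cover counting error only. Replicates are different embryos.

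The genes and lists were chosen with earlier results of these data known. Genes named are those past the threshold, the 5 highest and the 5 lowest per kilobase, Rpsa, the stalk, Rpl5, Rpl11, the X-linked genes and the paralogs; others were named after their values were seen. Transcript lengths and shared windows came from GENCODE, matched by Entrez identifier, for 84 of the 88 genes, and positions and start sites from RefSeq (GRCm38.p6). The 294 entries with a -ps symbol held at most 0.0055% of the counts of a library, and only 6 of them had any counts. Pseudogenes under other symbols, such as Gm13841, are not part of that share. Alternatives were DESeq2 1.42.0, limma 3.58.1, other normalizations and filters, more libraries in the fit, Xist as a covariate, a correction for GC content and length in 20 bins, pseudogene reads added, and each library left out. The steps were tested on simulated data. Figures were made in Python 3.11.15 with matplotlib 3.10.9.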

Additional observations from a re-analysis of the deposited data

Results flagged for a closer look

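Gm8580, a transcribed pseudogene related to Rpl29 at chr10:93665244-93665854 of GRCm38.p6, lies outside the ribosomal protein genes compared. It had 117, 181 and 179 counts in AhCk_38, AhCk_110 and AhCk_115 and 0 to 4 counts in the 9 libraries of run1008, wild type included, so that its level in AhCk stood above that of the controls. Of its windows of 50 bases, 40 of 415 occur in Rpl29, and of its windows of 75 bases 0 of 390. With its reads and those of Gm13841 added to Rpl29, the log2 fold change of AhCk to wild type was 1.87. For AhCk the genotype and the run cannot be told apart.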

How the results depend on the processing

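No paired analysis was possible because the numbers of the libraries are animal numbers and no 2 groups share one.

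The count of ribosomal protein genes past the threshold was 1 in AkCk against wild type (13.7% of all genes), and 2 with DESeq2 (21.3%), 2 with the correction for GC content and length (17.7%), and 0 with limma (7.67%), a joint fit of all 12 libraries (7.32%) or of the 9 in run1008 (4.3%), or all 12 with Xist as a covariate (6.2%). Leaving out each library gave 0 to 10 (3.35 to 21.1%). In AhCk against wild type it was 1 (2.36%), and 23 with DESeq2 (8.23%) and 1 to 25 when each library was left out (0.373 to 3.39%). In AhCk against AkCh it was 1 (0.177%), and 4 with all 12 libraries and Xist as a covariate (5.99%) but 1 with all 12 libraries alone (1.91%). There it was 0 with the reads of Gm13841 added to Rpl29 (0.164%), 0 with those of Gm8580 added as well (0.151%), and 0 to 1 when each library was left out (0.0499 to 0.735%). In AkCk against AhCk it was 4 (19.1%), and 9 with DESeq2 (24.9%), 2 with limma (13.2%), 1 with all 12 libraries (12%), 1 with Xist added to these (14.4%) and 1 to 6 when each library was left out (5.52 to 21.3%). In AkCh against wild type and AkCk against AkCh it was 0 under all 20 alternatives each. The share of all genes called in these alternatives was 0 to 1.22% in AkCh against wild type and 0 to 4.3% in AkCk against AkCh. The Audic-Claverie test, which also asks for a fold over 2, gave 0 in AkCk against wild type and 1 in AkCk against AhCk; called genes with smaller fold changes could not pass it, so that these counts say nothing of their stability. The cause of the other shifts was not tested.

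The log2 ratio of the summed levels of AhCk to AkCh ran from -0.63 to -0.025 when each library was left out, the latter without AkCh_20. Leaving out AkCh_20 turned that of AkCh to wild type from 0.20 to -0.23 and that of AkCk to AkCh from -0.32 to 0.11. For the called genes Rps4y2, Rpl29, Rpl37 and Rpl10, in the comparisons where each was called, 127 fold changes under the alternatives other than the Audic-Claverie test were computed: none reversed, and 37 no longer passed. Rpl29 passed in all 19 alternatives of AhCk against wild type, with log2 fold changes from 1.86 to 2.84, and in all 19 of AkCk against AhCk, and in 12 of 19 against AkCh. The median of the 81 genes in AkCk against wild type was 0.13 with Xist as a covariate, the opposite sign of the value without it. Where 2 libraries of a group remained, their spread was shared with the other group.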
